A study of Ovis aries with 16 samples.

Results

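THY1 encodes Thy-1, also called CD90, a small cell-surface glycoprotein of the immunoglobulin superfamily that is held in the membrane by a lipid anchor. It is carried by fibroblasts, mesenchymal stromal cells and preadipocytes, and also by some vascular cells, neurons and, depending on the species, T cells. In fat it is used to pick out the stromal cells from which adipocytes form, and it is a ligand of integrins. The study used it as its preadipocyte marker. Its list of marker transcripts gives identifiers for a pair of THY1 transcripts, THY1_201 (ENSOART00020024826) and THY1_202 (ENSOART00020024873), written here with a low dash before Ensembl's transcript number. Both stand in the deposited table. These 2 of 35219 transcripts are described here singly, summed, and as the share of THY1_201 in the sum. The sum covers only these 2 transcripts, and nothing in the table says whether reads of THY1 were assigned elsewhere.

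RNA was sequenced from perirenal fat of near-term fetuses of crossbred Columbia-Rambouillet ewes that each carried a single lamb. The 4 groups were males of control (MC) and of growth-restricted pregnancies (MFGR), and likewise females (FC, FFGR), with 4 libraries each and 1 fetus per library. Growth restriction came from keeping the ewe at high ambient temperature from early to mid gestation, which impairs the placenta, and control ewes were kept at a moderate temperature and fed the same amount. The RNA is of whole tissue, so a lower THY1 level from fewer stromal cells cannot be told apart from less THY1 RNA per cell. Transcripts that define fat were abundant in all 16 libraries, with ADIPOQ between 1741 and 3293 TPM, FABP4 between 1416 and 10369 TPM, and UCP1, which marks brown fat, between 1317 and 4430 TPM. Levels are given in TPM, the length-scaled share of a transcript in its library, which sums to 1000000 in each. TPM keeps no read count, so the depth behind each value is unknown and the error of a value is the spread between fetuses.

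THY1_201 was highest in MC. Its level was 63.0, 33.1, 68.1 and 60.9 TPM in MC replicates 1 to 4, with a mean of 56.3 ± 15.7 (SD, n = 4). In FC it was 40.4, 30.3, 10.9 and 23.7 TPM (26.3 ± 12.3, SD, n = 4). MC replicate 2 lay below FC replicate 1, and in the other 15 of 16 pairs of libraries the MC library was the higher. In MFGR the values were 14.9, 19.0, 35.4 and 23.7 TPM (23.3 ± 8.85, SD, n = 4). In FFGR they were 25.8, 6.51, 35.5 and 13.0 TPM (20.2 ± 13.0, SD, n = 4). The order of the means was MC, FC, MFGR and FFGR, and the last 3 lie within their spread of each other. THY1_201 stood between the 90.1 and 94.7 percentiles of the transcripts listed above 0 in the MC libraries, and between the 59.0 and 90.1 percentiles in the other groups.

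THY1_202 was low in every male and, with 1 exception, higher in every female. Its level was 4.67, 3.80, 13.6 and 6.36 TPM in MC replicates 1 to 4 (7.10 ± 4.45, SD, n = 4) and 2.42, 2.47, 3.82 and 1.70 TPM in MFGR (2.60 ± 0.883, SD, n = 4). In FC it was 48.3, 41.4, 16.5 and 35.5 TPM (35.4 ± 13.7, SD, n = 4), and in FFGR 34.3, 8.40, 49.0 and 24.4 TPM (29.0 ± 17.1, SD, n = 4). FFGR replicate 2 was the only female library under any male one, below MC replicate 3. The order of the means was FC, FFGR, MC and MFGR, where FC and FFGR lie within their spread. The percentile among transcripts above 0 ran from 41.4 to 74.8 in males and from 64.6 to 91.5 in females.

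**Figure D1:**
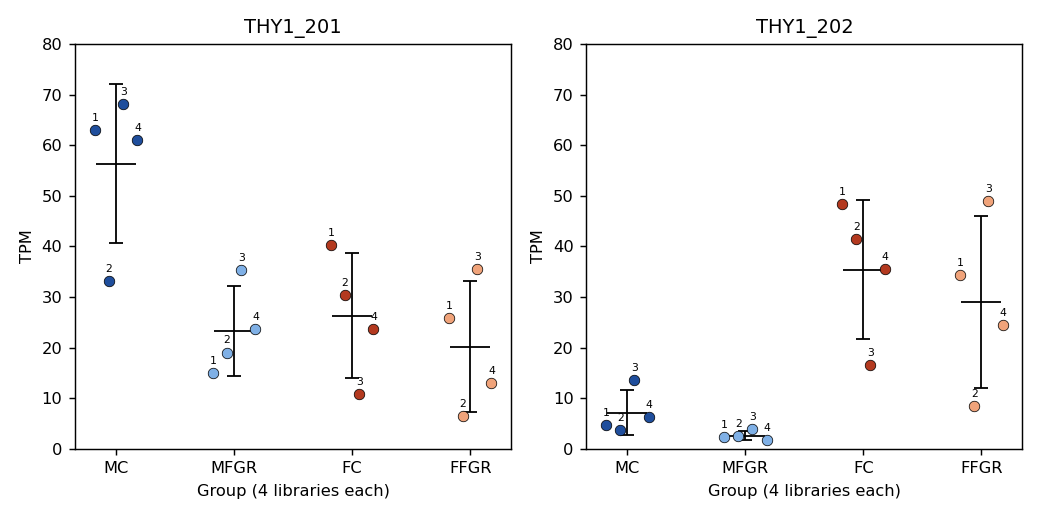
Level of THY1_201 (left) and THY1_202 (right) in TPM in each library, by group. Each point is 1 fetus labelled with its replicate number, and bars give the mean and SD of 4. THY1_201 is highest in MC (mean 56.3 TPM), while THY1_202 is at or below 13.6 TPM in all males and reaches 49.0 TPM in females.

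The comparison of control males with control females asks whether the marker differs with the sex of the fetus. THY1_202 was lower in MC than in FC, while neither THY1_201 nor the sum of both passed the test. Differences were tested in limma as log2(TPM + 1), which understates the change of low transcripts, with 1 mean per group over the 4574 transcripts that reached 20 TPM in at least 3 libraries. A transcript was called where its p, adjusted after Benjamini and Hochberg, was below 0.05 and the groups lay more than 1.5-fold apart. For THY1_202 the difference, MC minus FC, was -2.21 (SE 0.48, limma adjusted p = 0.00179), a level 4.62-fold lower on this scale, and the 4 MC libraries did not overlap the 4 FC libraries. Calls were common here, with 28.8% of the transcripts tested called in either direction and 22.6% called lower in MC, and 28.1% did not overlap in that direction. The THY1_202 difference stands among the larger ones, with 6.32% of the transcripts tested differing by more in either direction. No male library reached 20 TPM of THY1_202, so it entered the test through the female libraries alone. With the filter at 1 TPM, which all 16 libraries reach for this transcript, the same difference gave a limma adjusted p of 0.00301. Quantile normalization, which forces 1 distribution on all libraries, lessened the difference to -1.56 (limma adjusted p = 0.0458). It also changed the background, with the median of all transcripts tested at -0.20 in TPM and 0.08 after quantile normalization, and 285 transcripts called higher and 1033 lower in MC in the first against 726 and 583 in the second.

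For THY1_201 the difference, MC minus FC, was 1.15 (SE 0.47, limma adjusted p = 0.0587), 2.23-fold, short of the threshold. Here 6.23% of the transcripts tested were called higher in MC. The result lay close to the threshold. It passed in 4 of 10 other settings, with adjusted p between 0.0169 and 0.151 over all 10, and in 4 of the 16 fits that left out 1 library, with adjusted p between 0.0302 and 0.188. The fits that passed were those without MC replicate 2, FC replicate 1, FFGR replicate 2 or FFGR replicate 3, with differences of 1.39, 1.40, 1.15 and 1.15. The 11 mitochondrial transcripts, which share the fixed total of each library, took 35.0% to 43.5% of TPM in MC and 28.8% to 38.8% in FC. With TPM rescaled without them the difference was 1.30 (adjusted p = 0.0432).

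The summed level was 67.7, 36.9, 81.7 and 67.3 TPM in MC and 88.7, 71.7, 27.4 and 59.3 TPM in FC. The mean sums were 63.4 ± 18.9 TPM for MC and 61.8 ± 25.9 TPM for FC (SD, n = 4), and the ranges overlapped widely. In a limma fit in which the sum replaced both rows, the difference, MC minus FC, was 0.10 with a 95% interval from -0.90 to 1.10 on the log2 scale (adjusted p = 0.879). With 4 fetuses in each group, the interval leaves room for a level between 0.537 and 2.14 times that of FC.

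Growth-restricted males and females, a second set of libraries, were compared in the same way, with the same filter and the same spread estimate. Here too THY1_202 entered the test through the female libraries alone, and with the filter at 1 TPM its limma adjusted p was 0.000332. THY1_202 was again lower in males, with a difference, MFGR minus FFGR, of -2.85 (SE 0.48, limma adjusted p = 0.000210), 7.23-fold on this scale, and of -1.56 after quantile normalization (adjusted p = 0.0438). The 2 groups did not overlap, as for 31.6% of all transcripts tested in this direction, while 30.1% were called in either direction and 23.6% lower in MFGR. Here too the split of calls followed the scaling, with 297 higher and 1079 lower in TPM, 566 and 788 with median-of-ratios scaling and 721 and 639 after quantile normalization. THY1_201 differed by 0.37, MFGR minus FFGR (SE 0.47, adjusted p = 0.541), and 6.49% of transcripts were called higher in MFGR. The THY1_201 difference was 1.10 after quantile normalization (adjusted p = 0.196), -0.0304 with library weights (adjusted p = 0.958), and between -0.0480 without FFGR replicate 2 and 0.71 without FFGR replicate 3. The sum differed by -0.72 (SE 0.47, adjusted p = 0.226). This last value moved with single libraries. Without FFGR replicate 2, the library with the lowest sum, it was -1.19 (adjusted p = 0.0282), and without FFGR replicate 3, the highest of FFGR, it was -0.38 (adjusted p = 0.545). It was -1.12 with library weights (adjusted p = 0.0294) and -0.39 after quantile normalization (adjusted p = 0.532).

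The share of THY1_201 in the sum separated the sexes without exception. THY1_201 made up 93.1%, 89.7%, 83.4% and 90.6% of the sum in MC and 86.1%, 88.5%, 90.3% and 93.3% in MFGR. In FC it made up 45.5%, 42.3%, 39.8% and 40.0%, and in FFGR 42.9%, 43.6%, 42.0% and 34.7%. Every male library lay above 83%, and no female library exceeded 45.5%. The male mean was 89.2% ± 4.13 for MC and 89.5% ± 3.04 for MFGR, and the female mean 41.9% ± 2.65 for FC and 40.8% ± 4.13 for FFGR (SD, n = 4). The difference between the sexes was 48.0 percentage points when labels were exchanged within control and within growth-restricted libraries (two-sided exact permutation p = 0.000408, which no arrangement of these labels can go below, adjusted p = 0.00163 over the 4 share tests). It was 47.3 points between MC and FC and 48.7 points between MFGR and FFGR. The share does not depend on any scaling between libraries, as both transcripts are measured in the same one.

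**Figure D2:**
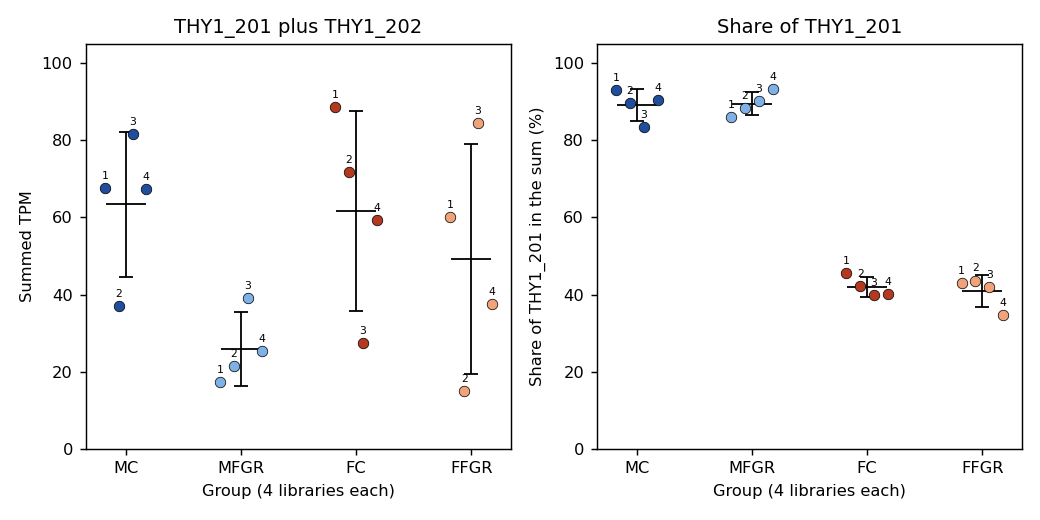
Summed TPM of THY1_201 and THY1_202 (left) and THY1_201 as a percentage of that sum (right) in each library, by group, with the mean and SD of 4. The mean sum is 63.4 TPM in MC, 61.8 TPM in FC and 25.9 TPM in MFGR, while the share splits males (83.4% or more) from females (45.5% or less).

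A male range apart from the female range was not rare. Over 8 male and 8 female libraries, 22.3% of the 4574 transcripts had ranges that did not overlap, and THY1_202 was not among them, with MC replicate 3 above FFGR replicate 2 in 1 of 64 pairs. That percentage counts levels of single transcripts. How often a share or ratio of 2 transcripts separates the sexes was not computed, so it gives no background for the share of THY1_201. CIDEA, a lipid droplet protein of brown adipocytes, is the only other marker with a pair of transcripts, and CIDEA_201 made up 81.7% to 88.2% of their sum in males and 83.8% to 92.7% in females, so the sexes overlapped. ND6 and ND5 are mitochondrial transcripts for subunits of complex I, and the level of ND6 over that of ND5 ran from 0.662 to 0.753 in males and from 0.0566 to 0.0867 in females. This pair was picked because earlier results of these data had shown its ratio to differ between the sexes. It is therefore no independent parallel to THY1. The ratio of THY1_201 to THY1_202 ran from 5.01 to 13.9 in males and from 0.532 to 0.836 in females. Its mean was 9.24 ± 3.16 in males and 0.710 ± 0.0913 in females (SD, n = 8), 13.0 times apart, where the mean ratio of ND6 to ND5 was 9.34 times apart. The labels describe 1 library preparation for all 16 libraries and give neither a batch nor a strand setting. Whether male and female libraries differed in preparation, sequencing or read assignment, and what part that had in the share and in the THY1_202 difference between the sexes, was not tested, as the deposited values hold no reads. RefSeq's list of sheep genes on the assembly ARS-UI_Ramb_v3.0, which is not the assembly the values were made on, has 3 transcripts of THY1 and 1 long noncoding RNA, LOC105602204, that overlaps the gene. It pairs none of them with the identifiers used here.

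Both transcripts were lower on average in MFGR than in MC, the comparison that asks how growth restriction acted on the marker in males, but neither passed the test. The summed level was 17.4, 21.5, 39.2 and 25.4 TPM in MFGR against 36.9 to 81.7 TPM in MC. Of 16 pairs of libraries, MFGR was the higher in 1, where MFGR replicate 3 exceeded MC replicate 2. The mean sums were 25.9 ± 9.49 TPM for MFGR and 63.4 ± 18.9 TPM for MC (SD, n = 4), and the mean of MC was 2.45 times that of MFGR. In limma the sum differed by -1.27, MFGR minus MC, with a 95% interval from -2.26 to -0.27 (unadjusted p = 0.0162, adjusted p = 0.177).

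THY1_201 alone differed by -1.26, MFGR minus MC (SE 0.47, adjusted p = 0.184), and THY1_202 by -1.06 (SE 0.48, adjusted p = 0.264). Few transcripts were called here at all, with 0.459% called in either direction and 0.24% called lower in MFGR, which is 10 higher and 11 lower in TPM, and 77 and 21 with median-of-ratios scaling. The THY1 differences were large among the transcripts tested, since 2.30% differed by more than THY1_201 and 3.45% by more than THY1_202. Their standard errors were large as well, against a median of 0.17 over all transcripts, and 7.76% of transcripts had a larger one than THY1_201. These errors rest on 1 spread estimate shared by the 4 groups. In a fit of only the 8 libraries compared, the sum differed by -1.27 (SE 0.29, limma adjusted p = 0.107). THY1_201 differed there by -1.26 (SE 0.29, limma adjusted p = 0.108), and neither was called. Leaving out 1 library at a time gave differences of the sum from -1.50 to -1.10 (adjusted p from 0.0951 to 0.352). The mitochondrial transcripts took 29.2% to 37.7% of TPM in MFGR against 35.0% to 43.5% in MC, and without them the sum differed by -1.41 (limma adjusted p = 0.0909). The share of THY1_201 differed by 0.350 percentage points, MFGR minus MC (exact permutation test, two-sided, p = 0.914, where 4 libraries against 4 cannot go below 0.0286).

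In females the levels of growth-restricted and control fetuses overlapped throughout. The summed level was 60.1, 14.9, 84.5 and 37.4 TPM in FFGR against 27.4 to 88.7 TPM in FC. FFGR was the higher in 6 of 16 pairs of libraries. The sum differed by -0.45, FFGR minus FC, with a 95% interval from -1.45 to 0.55 (limma adjusted p = 0.902), which includes the change estimated in males. THY1_201 differed by -0.47 (SE 0.47, adjusted p = 0.901) and THY1_202 by -0.42 (SE 0.48, adjusted p = 0.910). In this comparison 0 of 4574 transcripts were called (0%) in limma, and 7.37% had an unadjusted p under 0.05. Single libraries moved these values both ways. Without FFGR replicate 2 THY1_202 differed by 0.0645, the sum by 0.0193 and THY1_201 by -0.0544. Without FFGR replicate 3 they differed by -0.74, -0.79 and -0.82, and without FC replicate 3 by -0.73, -0.79 and -0.83, and none of these passed the test. The share of THY1_201 differed by -1.08 percentage points (exact permutation test, two-sided, p = 0.743).

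That the male and female changes differ from each other was not shown. The interaction, the change in males minus the change in females, was -0.78 for THY1_201 (SE 0.66, limma adjusted p = 0.653), -0.64 for THY1_202 (SE 0.68, adjusted p = 0.719) and -0.82 for the sum, with a 95% interval from -2.23 to 0.59 (adjusted p = 0.639). Without 1 library the interaction ran from -1.20 to -0.43 for THY1_201, from -1.12 to -0.32 for THY1_202 and from -1.29 to -0.47 for the sum. The most negative values came without FFGR replicate 2 and the least negative without FC replicate 3 or, for THY1_202, MC replicate 3. For THY1_202 it was -0.0014 after quantile normalization, and it passed in none of these fits. No transcript of the 4574 was called for it (0%), and 11.2% had an unadjusted p under 0.05. For the share the changes differed by 1.43 percentage points (exact permutation test with labels exchanged within each sex, two-sided, p = 0.683).

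**Figure D3:**
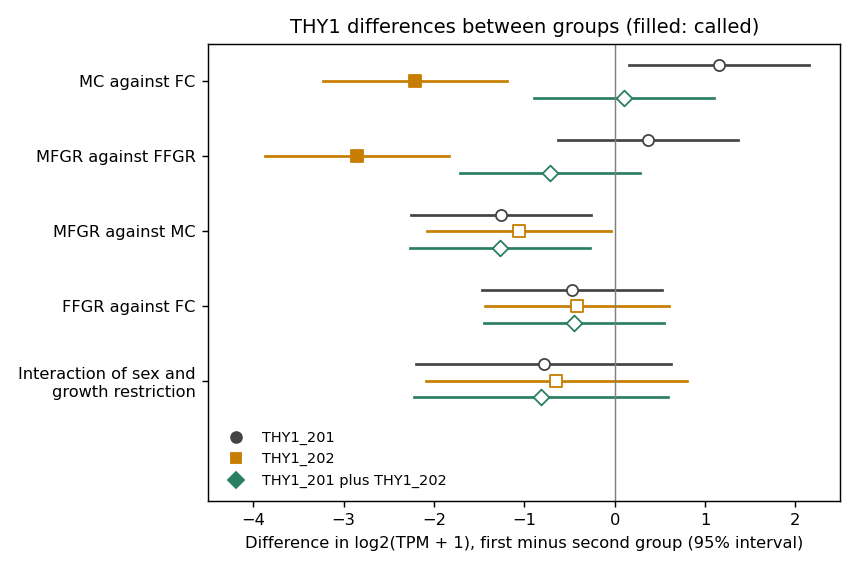
Differences in log2(TPM + 1) between groups, first minus second, for THY1_201, THY1_202 and their sum, with 95% intervals from limma. Filled symbols passed the test. THY1_202 passed in both comparisons of males with females (-2.21 and -2.85), and the intervals of all differences from FFGR to FC include 0.

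THY1 levels varied widely between fetuses of 1 group, and both transcripts rose and fell together. The highest sum was 5.67 times the lowest in FFGR, 3.24 times in FC, 2.21 times in MC and 2.26 times in MFGR. After the mean of each group was subtracted from log2(TPM + 1), THY1_201 and THY1_202 had a Pearson correlation of 0.874 over 16 libraries (p = 0.00019, adjusted p = 0.00285) and a Spearman correlation of 0.859 (p = 0.00011, adjusted p = 0.00165), by permutation of libraries within groups. Adjustment was over 15 relations. Without MC replicate 3 and FFGR replicate 2, the libraries farthest from the median of THY1_202, the Pearson correlation was 0.870. Of 4573 other transcripts, THY1_201 had the highest such correlation with THY1_202, and THY1_202 stood at rank 12 for THY1_201. The most like THY1_201 was ENSOART00020034468 (Pearson 0.925), a transcript without a name here. Both THY1 transcripts belong to 1 gene, and how reads that fit both were divided is not known. Their levels may therefore not be independent measurements.

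In females the ratio of the 2 transcripts varied less than their level. The log2 ratio of THY1_201 to THY1_202 had an SD of 0.16 in FC and 0.25 in FFGR, while the log2 of the sum had an SD of 0.74 and 1.09 (n = 4). In males it did not, with SDs of the log2 ratio of 0.59 in MC and 0.50 in MFGR and of the log2 sum of 0.50 in both. THY1_202 lay between 1.70 and 13.6 TPM in males and between 8.40 and 49.0 TPM in females. Depth is unknown, so how much counting error adds to the male ratios cannot be given. The female libraries with the lowest sums, FFGR replicate 2 (14.9 TPM) and FC replicate 3 (27.4 TPM), had shares of THY1_201 of 43.6% and 39.8%, inside the range of the other females.

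**Figure D4:**
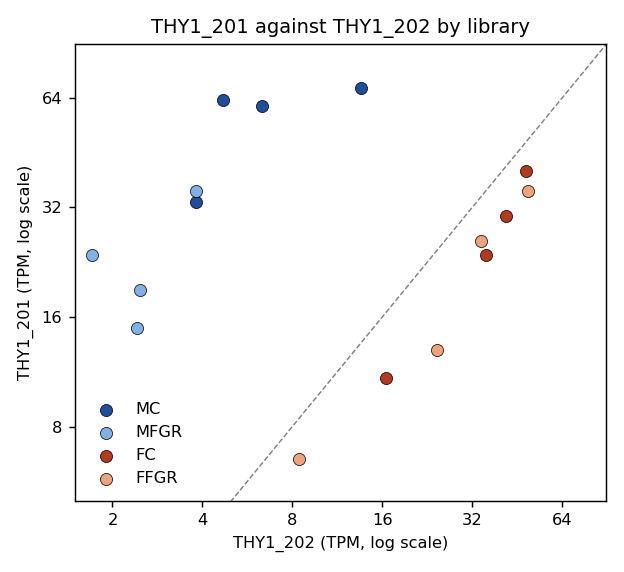
THY1_201 against THY1_202 in TPM, both axes on a log scale, 1 point per library, with equal levels on the dashed line. All 8 male libraries lie above the line (ratio 5.01 to 13.9) and all 8 female libraries below it (ratio 0.532 to 0.836).

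Among the other marker transcripts of the study, FABP4 ran against THY1 from fetus to fetus. Not all adipocyte markers did, as ADIPOQ and CIDEA_202, the other CIDEA transcript, had positive correlations with both THY1 transcripts, given below. FABP4 is the fatty acid binding protein that rises as preadipocytes become adipocytes. Within groups its Pearson correlation with THY1_201 was -0.702 (permutation p = 0.00132, adjusted p = 0.0066) and its Spearman correlation -0.741 (p = 0.00142, adjusted p = 0.00532), over 16 libraries. With THY1_202 they were -0.662 (permutation p = 0.00114, adjusted p = 0.0066) and -0.782 (p = 0.00059, adjusted p = 0.00442). Without the 2 libraries farthest from the median of the THY1 transcript, the Pearson correlations were -0.630 and -0.694. Within 1 sex, without subtracting group means, FABP4 and THY1_201 had a Pearson correlation of -0.940 over the 8 males and of -0.302 over the 8 females. These 2 values mix the relation between fetuses with the differences between control and growth-restricted means. In males the group means moved in opposite directions, with FABP4 at 2445 TPM in MC and 6015 TPM in MFGR and THY1_201 lower in MFGR. In females both means were lower in FFGR, with FABP4 at 5205 TPM in FC and 2271 TPM in FFGR. Whether the relation differs between the sexes was not tested.

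FABP4 was 2553, 4002, 1416 and 1809 TPM in MC and 10071, 4596, 3216 and 6178 TPM in MFGR. In FC it was 3637, 2200, 10369 and 4616 TPM, and in FFGR 1801, 2796, 2237 and 2251 TPM. The highest FABP4 of a group fell on the library with the lowest THY1_201 in all 4 groups. FABP4 itself was not called in MFGR against MC (difference 1.28, SE 0.44, limma adjusted p = 0.145) and was called higher in MFGR than in FFGR (difference 1.29, SE 0.44, adjusted p = 0.0257). Of the 7 other markers 5 reached the filter. In MC against FC 0 of 5 were called, where 28.8% of all transcripts were, and 0 of 5 in MFGR against MC (0.459%) and FFGR against FC (0%), while in MFGR against FFGR (30.1%) 1 was called higher and 1 lower, CIDEA_201 (difference -0.67, adjusted p = 0.0013).

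**Figure D5:**
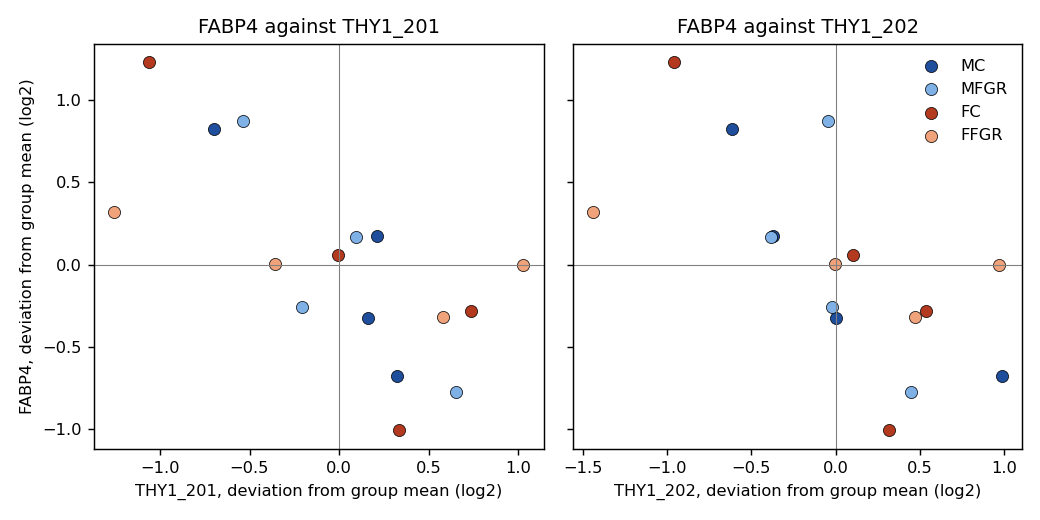
Deviation of FABP4 from its group mean against that of THY1_201 (left) and THY1_202 (right), all as log2(TPM + 1), 1 point per library. Libraries with less THY1 than their group tended to have more FABP4 (Pearson correlations of -0.702 and -0.662 over 16 libraries).

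UCP1, the uncoupling protein that makes brown fat produce heat, also ran against THY1_201, with a Pearson correlation of -0.695 (permutation p = 0.00653, adjusted p = 0.0163) and a Spearman correlation of -0.715 (p = 0.00718, adjusted p = 0.0215) over 16 libraries, and -0.763 without FC replicate 3 and FFGR replicate 2. With THY1_202 its Pearson correlation was -0.557 (permutation p = 0.0534, adjusted p = 0.0728). ADIPOQ, the hormone adiponectin of mature adipocytes, had a positive Pearson correlation with THY1_201 of 0.691 (permutation p = 0.023, adjusted p = 0.0491). It rested on FC replicate 3 and FFGR replicate 2, without which it was 0.346, and the Spearman correlation was 0.524 (p = 0.0862, adjusted p = 0.144). With THY1_202 the Pearson correlation of ADIPOQ was 0.608 (permutation p = 0.045, adjusted p = 0.0676). TPM values of 1 library share a fixed total and a tissue piece, so these relations are not independent of each other.

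The study lists 6 transcripts under focal adhesion, the contacts at which integrins hold a cell to its matrix, and 4 of them reached the filter. In MFGR against MC 0 of the 4 were called (0.459% of all transcripts), and all 4 were lower, with a median difference of -1.14 where the median of all transcripts tested was -0.02. In MC against FC 0 of 4 were called (28.8% of all transcripts), 3 were higher and 1 was lower, with a median of 0.58 against -0.20 over all transcripts. In MFGR against FFGR all 4 were lower and 1 was called, a share near the 30.1% of all transcripts, and in FFGR against FC 3 were lower, 1 was higher and 0 were called (0% of all transcripts). The same 4 are the tested members of the study's PI3K-Akt list. Both were picked by the study from the comparison of MFGR with MC, so the direction there is not independent evidence. The comparisons of MC with FC and of MFGR with FFGR use those same male libraries. Their directions and medians are therefore not independent of that choice either. Names for these transcripts were not at hand.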

How the data were processed

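The authors checked reads with FastQC 0.11.9 and quantified them with Salmon on the Ensembl annotation of Oar_rambouillet_v1.0, depositing TPM values for 35219 transcripts in 16 libraries. Read counts were not used here, so no count model was fitted and depth is unknown.

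The log2(TPM + 1) values were fitted with limma 3.58.1 in R 4.3.3 (trended prior, 1 mean per group, 12 residual degrees of freedom) over the 4574 transcripts at 20 TPM or more in at least 3 libraries, after a test on simulated data. Shares were compared by exact permutation and relations by 100000 permutations within groups (Python 3.11.15). Relations with markers were tested after seeing the data.

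Members, lists, tests and the rule for named transcripts were chosen with earlier results of these data known. The rule takes both THY1 transcripts, the 7 other usable markers, ND5 and ND6, the focal adhesion and PI3K-Akt lists of the study, and the transcript most like each THY1 transcript. TCF21 is printed with the identifier of CIDEA_202 and was left out. Symbol lists of other cell types were not used here, since no source given pairs symbols with these transcripts. Alternatives changed the pseudocount, filter, scaling, variance model, library weights, libraries fitted or the replicate block, or left out each library.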

Additional observations from a re-analysis of the deposited data

How the results depend on the processing

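THY1_202 stayed called in MC against FC and in MFGR against FFGR in all alternatives run, as did the sex difference of the share. Neither transcript was called for growth restriction or for the interaction in any of them. For THY1_201 in MC against FC the difference passed with median-of-ratios scaling (1.23), library weights (1.26), TPM without mitochondrial transcripts (1.30) and only the 8 libraries compared (1.15). With library weights the difference turned to -0.0304 for THY1_201 in MFGR against FFGR, and in FFGR against FC to 0.0044 for THY1_201, 0.0106 for THY1_202 and 0.0071 for the sum, while the sum passed in MFGR against FFGR (-1.12). The share in MFGR against MC turned to -1.37 points with 1 TPM added and to -0.20 as a log2 ratio after 1 TPM was added to each transcript, and its interaction to -0.44 and -0.14. The cause was not tested. THY1_202 in MFGR against MC could not be fitted in those 8 libraries alone, as it stays under the filter there.

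Leaving out 1 library moved the differences of THY1_201 from 0.80 to 1.40 in MC against FC, from -0.0480 to 0.71 in MFGR against FFGR, and those of THY1_202 from -0.74 to 0.0645 in FFGR against FC. For the sum they ran from -0.24 to 0.34 in MC against FC, from -1.19 to -0.38 in MFGR against FFGR and from -0.79 to 0.0193 in FFGR against FC. The sum in MC against FC turned without MC replicate 3 or FC replicate 3, and the other levels that turned did so without FFGR replicate 2. Shares ran from -1.59 to 1.65 points in MFGR against MC, from -2.02 to 0.954 in FFGR against FC and from -0.605 to 2.74 for the interaction.

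Called transcripts numbered 1318 in MC against FC, 1376 in MFGR against FFGR, 21 in MFGR against MC and 0 in FFGR against FC and for the interaction. At a filter of 1 TPM they were 3106, 3654, 8, 4 and 2. In MFGR against MC they were 98 with median-of-ratios scaling, 12 with quantile normalization, 7 with the replicate block and 1 to 83 without 1 library, and for the interaction 0 to 2 without 1 library. With the replicate block 1312 were called in MC against FC and 1371 in MFGR against FFGR, and no call of a THY1 level or share changed. Same-numbered libraries had a median correlation of deviations of 0.03, against -0.003 for libraries of other numbers, and 6 of 16 correlated best with their own number. The correlations ran from -0.21 to 0.27 for the same number and from -0.29 to 0.30 for other numbers. Pairing by number was not tested, and whether the numbers follow a batch is not given. Of 462 recomputed THY1 differences, 433 kept direction and side of the threshold. Many of them could not change direction, since leaving out a library of a group not compared leaves the difference as it was. The count is therefore no measure of how stable the results are. Depth is unknown, so counting error at low THY1_202 values could not be given.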

Other observations

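CIDEA_202, under 23 TPM in all libraries, rose with THY1_201 (Pearson 0.633, permutation p = 0.00427, adjusted p = 0.0128, and Spearman 0.647, adjusted p = 0.0412, over 16 libraries) and with THY1_202 (Pearson 0.551, permutation p = 0.00236, adjusted p = 0.00885, and Spearman 0.682, adjusted p = 0.00532). Its Pearson correlations were 0.575 and 0.699 without the 2 libraries farthest from the median of the THY1 transcript. For CIDEA_201, which is several times more abundant, they were 0.216 and 0.348 over all 16 (permutation p = 0.426 and 0.191). HOXC9 gave 0.238 and 0.365 (permutation p = 0.326 and 0.18). Leptin (ob), the satiety hormone of white adipocytes, gave -0.546 and -0.497 (permutation p = 0.0262 and 0.0374, adjusted p = 0.0491 and 0.0624), and its Spearman correlations of -0.476 and -0.421 did not pass (adjusted p = 0.139 and 0.15).

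HOXC9, a homeobox gene used as a marker of white and beige fat, was also lower in males. Its level lay between 2.36 and 6.94 TPM in males and between 7.60 and 11.1 TPM in females, without overlap. Of the transcripts that reached 20 TPM, which HOXC9 did not, 22.3% had no overlap in either direction, and the percentage at a filter of 1 TPM was not computed. The difference was -0.995 in MC against FC (SE 0.19, limma adjusted p = 0.00144) and -1.09 in MFGR against FFGR (SE 0.19, adjusted p = 0.000601), in the fit with a filter of 1 TPM. There 3106 and 3654 of 17291 transcripts were called in either direction.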
